A study of Mus musculus with 25 samples.

Results

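The 10 genes described here carry Notch signalling between neighbouring cells: the ligands Jag1, Jag2, Dll1 and Dll4, the receptors Notch1, Notch2 and Notch3, and the target genes Hes1, Hey1 and Heyl. They were chosen by name as members of 1 pathway, with earlier results of these data known. The higher Jag1 level with platelets on the exon arrays was the measured value in view. Those Jag1 differences are therefore given without a test. All 10 were measured on both array types, out of 18997 genes for the exon type and 19938 for the gene type. Each had exactly 1 probe set annotated with its symbol alone, so no probe set had to be chosen.

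In Notch signalling, a ligand on the surface of 1 cell binds a receptor on the next cell, and the pull releases the intracellular part of the receptor by successive cuts of ADAM proteases and gamma-secretase. The freed fragment enters the nucleus, joins the DNA-binding protein RBPJ and a Mastermind coactivator, and switches on genes such as Hes1, Hey1 and Heyl, which encode transcriptional repressors. In the mammary gland the pathway is known for its part in the choice between luminal and basal cell fates, and Jag1 is known as a gene that TGF-beta can induce in epithelial cells.

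The cells were Ep5 (EpRas), a mouse mammary epithelial line transformed with Ras and labelled with the C57BL/6 background. The exon arrays held sub-confluent cells alone (n = 5), cells after 24 h of culture with about 1000 platelets per cell (n = 5), and cells to which the same ratio of platelets was added immediately before RNA isolation, called mixed at lysis (n = 3). The gene arrays held cells alone, cells cultured with whole platelets at that ratio for 24 h, and cells cultured for 24 h with either the resuspended pellet or the releasate of platelets that had been treated with thrombin and spun down (n = 3 each). Platelets came from wild-type C57BL/6 mice. No platelet number was given for the pellet and the releasate, and neither the cells alone nor the whole-platelet cultures were labelled as having received thrombin. No culture time is recorded here for the cells alone or those mixed at lysis, so a match in time with the 24 h cultures is not established. All samples came from the same cell line, and the labels do not say whether they were separate cultures. The exon arrays of cells alone and of platelet cultures are numbered 1 to 5, mixed-at-lysis arrays 4 to 6, and all gene-array groups 7 to 9, as in the sample titles. Comparisons with the cells alone share the alone arrays, and comparisons of the platelet cultures share the platelet arrays.

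Of the epithelial markers, 7 of 9 measured on the exon arrays and 8 of 10 on the gene arrays read above the array median in every group, while Krt5 and Krt19 had means below it on either type. Krt8, Krt18 and Epcam had mean log2 levels between 11.4 and 13.2 in every group of either array type, far above the array medians of 3.62 to 3.90 (exon) and 5.56 to 5.63 (gene). Within that list Krt14, a basal keratin, rose with platelets by 1.20 ± 0.205 (adjusted p = 0.00414) and Cldn4, a tight junction protein, by 0.45 ± 0.0893 (0.0115) against cells alone on the exon arrays, and Krt14 also rose with whole platelets on the gene arrays, by 2.21 ± 0.428 (0.0461). The mean of the platelet markers (12 of 15 measured) was 3.69 to 3.96 on the exon arrays of cells alone, 4.79 to 6.74 with platelets and 5.80 to 6.14 when mixed at lysis. For the gene arrays (11 of 15 measured) it was 5.56 to 5.66 alone, 6.00 to 6.11 with platelets, 5.90 to 6.02 with pellet and 5.46 to 5.52 with releasate. The list mean of leukocyte markers (9 of 10 measured) on the exon arrays was 3.41 to 3.62 alone, 3.76 to 3.99 with platelets and 3.79 to 3.90 mixed at lysis. The typical marker moved little. The median difference of the 9 from cells alone was 0.06 with platelets and -0.02 mixed at lysis, and the highest was 2.33 and 3.27. Of these 9, Laptm5 and Csf1r rose with platelets against cells alone (2.33 ± 0.448 and 0.37 ± 0.0822), the general leukocyte marker Ptprc stayed near 3.06 in both, and none passed against cells mixed at lysis. On the gene arrays the leukocyte list mean was 4.78 to 4.81 alone and 4.77 to 4.86 with whole platelets, and none of its 10 markers passed between them. The part of platelet and leukocyte RNA in the results was not tested. The platelet tags of gene arrays alone 8 and platelets 9 contradict their source names, which were followed here. The Jag1 difference between whole platelets and alone, and several counts of calls, are also given without these arrays. The other single-gene results on the gene arrays are given only with them. The platelet marker Pf4 read 4.63 to 4.83 on the gene arrays of cells alone and 6.01 to 6.90 with whole platelets. For Ppbp these ranges were 7.88 to 9.84 and 10.25 to 10.51. In both genes alone 8 lay below every whole-platelet array, and platelets 9 lay above every alone array. Some exon arrays stood apart in a property that several of the receptor values move with. This GC shift is the mean deviation, from the mean of all exon arrays, of the 25% of genes with the most GC-rich promoters minus that of the 25% with the least GC-rich, among 9379 genes. It was 0.07 in alone 5, 0.10 and 0.13 in mixed at lysis 5 and 6, and 0.07 and 0.11 in platelets 4 and 5, and it lay between -0.10 and 0.00 on the other 8 exon arrays.

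Jag1 encodes Jagged1, a membrane-bound ligand, and was the 1 member whose difference passed the adjusted p on the gene arrays. For that reason its promoter is shown, as the 250 bases before the annotated start at chr2:137116521-137116770 on the minus strand (RefSeq, GRCm38.p6), written 5′ to 3′ in the direction of transcription. Capitals mark the single match to any searched motif, a CAGAC (Smad) at 209 to 205 bases before the start.
Jag1: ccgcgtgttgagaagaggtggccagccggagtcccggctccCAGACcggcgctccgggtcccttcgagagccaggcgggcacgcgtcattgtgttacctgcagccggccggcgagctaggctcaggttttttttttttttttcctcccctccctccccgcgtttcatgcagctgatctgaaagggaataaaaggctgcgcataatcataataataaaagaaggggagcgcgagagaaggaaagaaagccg
The motifs were TGGGAA and the longer GTGGGAA that contains it (RBPJ), CACGTG (E-box), CACNAG (N-box), CAGAC (Smad), CATTCC (TEAD) and TGANTCA (AP-1), each sought on both strands. CAGAC occurred in 42.2% of 32851 annotated promoters of the same length, TGGGAA in 21.6%, GTGGGAA in 5.42%, CACGTG in 6.02%, CACNAG in 36.7%, CATTCC in 12.6% and TGANTCA in 6.75%. Promoter entries matched 7 of the 10 members. None was available for Hes1, Hey1 and Heyl, so these genes were not searched. None of these 7 members held an RBPJ or E-box letter string in this window, while the Dll1, Dll4 and Notch3 windows also held CAGAC.

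Jag1 was higher with platelets on every exon array. Its log2 level was 6.35, 7.42, 7.26, 7.67 and 7.68 on the arrays of cells alone and 7.65, 7.85 and 7.63 on those mixed at lysis. With platelets it was 9.56, 9.86, 9.66, 9.65 and 9.85. The platelet cultures thus lay together above all 8 control arrays, without overlap, and alone 1 was the lowest of the controls. The mean difference from cells alone was 2.44 ± 0.210 (SE) on the log2 scale, a 5.43-fold higher level, and that from cells mixed at lysis was 2.01 ± 0.243, or 4.03-fold. Cells mixed at lysis carried platelet marker RNA at a mean level within the range of the platelet cultures, and their Jag1 level was 0.43 ± 0.243 above cells alone, by limma with an adjusted p of 0.945. Those groups overlapped, since alone 4 and 5 lay above 2 of the 3 mixed arrays.

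The gene arrays gave a separate measurement of Jag1, though earlier results of these data were known when the list was drawn up. Its log2 level was 7.40, 6.87 and 7.26 in cells alone. With whole platelets it was 8.36, 8.37 and 9.04. With pellet it was 7.65, 8.17 and 8.52, and with releasate 7.14, 7.36 and 7.73. All 3 whole-platelet arrays and all 3 pellet arrays lay above all 3 alone arrays, whereas releasate and alone overlapped. Jag1 rose by 1.41 ± 0.249 with whole platelets, 2.67-fold, with an adjusted p of 0.0297 by limma over all 19938 genes. The difference had the same sign in all 3 same-numbered pairs (0.96 to 1.78), and 0.0552% of genes had a difference at least as high. With the number as a block in the limma fit of all gene-array groups, Jag1 kept its call (adjusted p = 0.00391). The count of all genes called went from 133 to 454. No label states that the numbers pair the samples.

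The Jag1 call on the gene arrays rested on few arrays. It held without platelets 7 (adjusted p = 0.0469) and was lost without platelets 8 (0.0708), platelets 9 (0.0861), alone 7 (0.0790), alone 8 (0.0950) or alone 9 (0.120), while the difference itself stayed between 1.19 and 1.53. Without both alone 8 and platelets 9, the arrays with contradictory tags, the difference was 1.04 with an adjusted p of 0.166.

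Pellet stood between whole platelets and cells alone in Jag1. The pellet difference from cells alone was 0.94 ± 0.249, with an unadjusted p of 0.00302 and an adjusted p of 0.164, so it did not pass over all genes. Releasate exceeded cells alone by 0.23 ± 0.249 (95% interval -0.31 to 0.78) with an adjusted p of 1.00. Whole platelets exceeded releasate by 1.18 ± 0.249 without overlap (adjusted p = 0.185), pellet exceeded releasate by 0.70 ± 0.249 with overlap (adjusted p = 0.717), and whole platelets exceeded pellet by 0.48 ± 0.249 with overlap (adjusted p = 0.974). In mean level the order was therefore alone, releasate, pellet, whole platelets, and no neighbours in that order were told apart. The mean of the platelet marker list was also higher with whole platelets and pellet than alone. With releasate it was lower (5.46 to 5.52) than alone (5.56 to 5.66). The releasate differences of the single markers had a median of -0.03. The lowest was that of Ppbp (-1.13), which read 7.88 to 9.84 alone and 7.18 to 8.43 with releasate. Of the 11 measured markers of the list, 2 passed with whole platelets against alone (Pf4 and Clec1b) and 2 with pellet, and none passed with releasate. Between platelet cultures and cells mixed at lysis on the exon arrays, none of the 12 platelet markers passed, and their differences had a median of 0.13 and ran from -0.83 to 0.56.

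**Figure D1:**
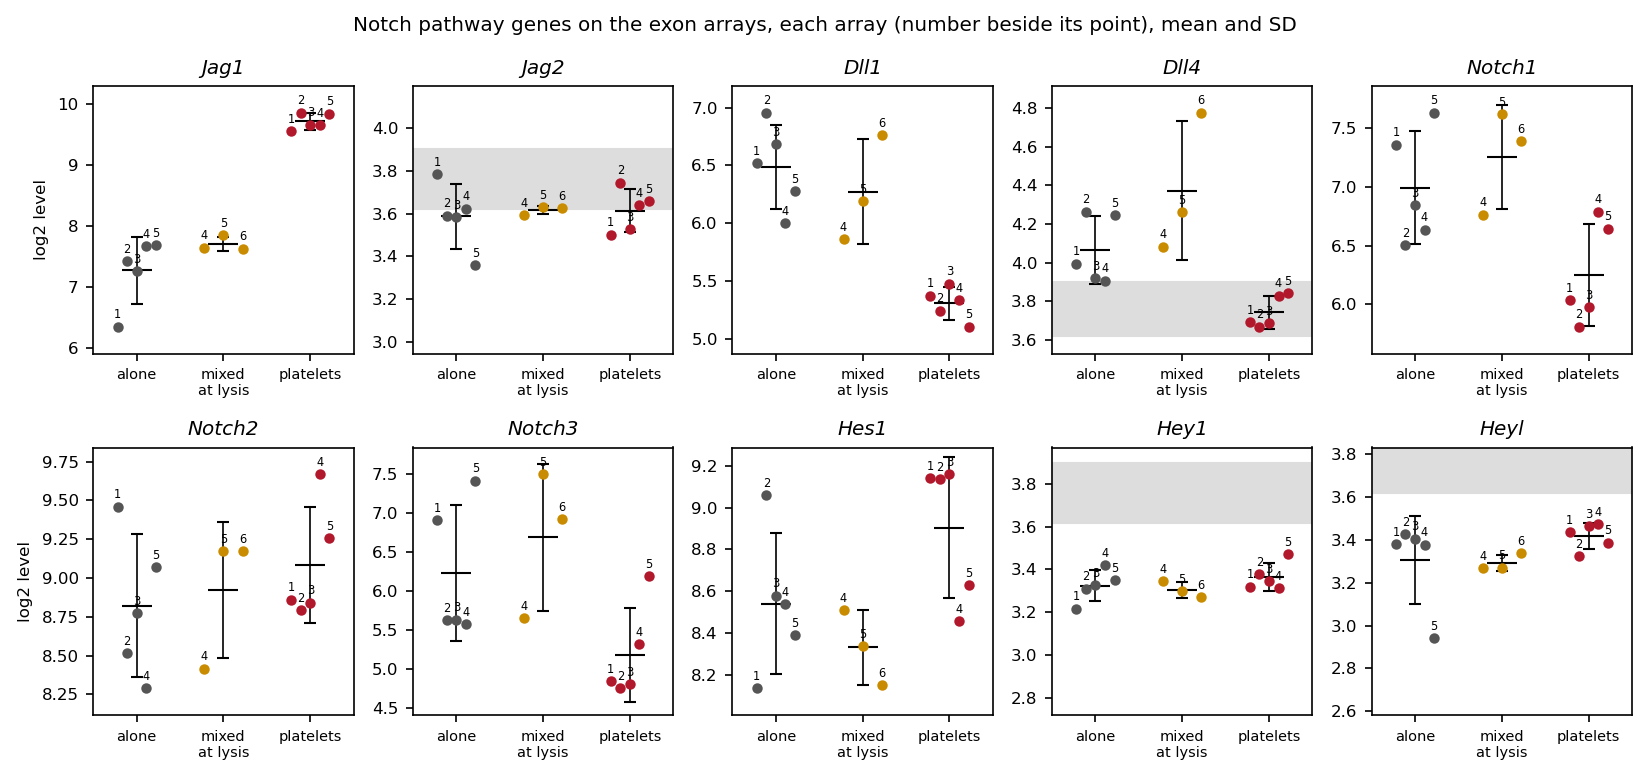
Log2 level (vertical axes) of each member on each exon array by group, with the array number beside each point, the group mean and SD as black bars, and the range of the array medians as a grey band where it falls on the axis. Jag1 with platelets sits between 9.56 and 9.86, above all controls, and Dll1 with platelets sits between 5.11 and 5.48, below all controls.

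Dll1 moved the other way. Dll1 encodes Delta-like 1, a ligand of the Delta class. Its log2 level on the exon arrays was 6.52, 6.95, 6.68, 6.00 and 6.28 in cells alone and 5.86, 6.19 and 6.76 in cells mixed at lysis. With platelets it was 5.38, 5.25, 5.48, 5.34 and 5.11. Every platelet culture lay below every control array. Dll1 fell by 1.18 ± 0.187 against cells alone, to 0.442 of the level, with an adjusted p of 0.00242 by limma, and the call held without any 1 of the 10 arrays compared (adjusted p at most 0.00934). In bulk RNA, fewer cells that express a gene and less of its RNA per cell cannot be told apart.

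Against cells mixed at lysis, Dll1 fell by 0.96 ± 0.216 (adjusted p = 0.0265). This call was lost without platelets 1 (0.0547), platelets 2 (0.0644), platelets 5 (0.0511), mixed at lysis 5 (0.0787) or mixed at lysis 6 (0.147), and it was also lost with equal array medians (0.0528), with the replicate number as a block (0.0590), within numbers 4 to 6 (0.227) and after the arrays were quantile normalized again (0.237). Without the 5 arrays of high GC shift the Dll1 difference was -0.50 ± 0.313 (adjusted p = 0.555). The difference without 1 array stayed between -1.17 and -0.72. Cells mixed at lysis and cells alone differed in Dll1 by -0.22 ± 0.216 with overlapping values (adjusted p = 0.945).

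The Dll1 probe set of the gene arrays read below the array median in every group. Its log2 level was 5.56, 5.27 and 5.42 in cells alone and 5.03, 5.06 and 5.11 with whole platelets. With pellet it was 5.31, 4.89 and 5.23, and with releasate 5.27, 5.35 and 5.27. Whole platelets and alone did not overlap, with a difference of -0.35 ± 0.103 that had an unadjusted p of 0.00574 and an adjusted p of 0.206, so Dll1 did not pass there. The pellet difference was -0.27 ± 0.103 with overlap (adjusted p = 0.386) and the releasate difference -0.12 ± 0.103 with overlap (adjusted p = 1.00).

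Dll4 encodes Delta-like 4, a ligand best known from sprouting blood vessels. Its exon-array log2 level was 3.99, 4.26, 3.92, 3.91 and 4.25 in cells alone. It was 4.08, 4.26 and 4.77 in cells mixed at lysis and 3.69, 3.67, 3.69, 3.83 and 3.84 with platelets. The platelet cultures again lay below all control arrays, but close to their own array medians of 3.62 to 3.77. Against cells mixed at lysis Dll4 fell by 0.63 ± 0.143 (adjusted p = 0.0280), and the call was lost without platelets 1 (0.0670), platelets 2 (0.0707), platelets 3 (0.0658), mixed at lysis 5 (0.0630) or mixed at lysis 6 (0.120). It was also lost when only these groups were fitted (0.0611), with sets of numbers as a factor (0.111), within numbers 4 to 6 (0.5262), with the replicate number as a block (-0.38, 0.219) and without the 5 arrays of high GC shift (-0.40, 0.283). Against cells alone the difference was -0.32 ± 0.124 (adjusted p = 0.230). On the gene arrays Dll4 read below the array median everywhere, between 4.99 and 5.30, and its difference from cells alone was -0.07 ± 0.0641 with whole platelets, -0.14 ± 0.0641 with pellet and 0.01 ± 0.0641 with releasate. The endothelial markers, which Dll4 often accompanies in tissue, averaged 3.31 to 3.51 on all exon arrays, under the lowest array median. In each exon group, 2 of the 10 markers had a mean above the array median.

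Jag2, the Jagged relative of Jag1, stayed near or below the array median. It read 3.36 to 3.78 on the exon arrays, and 4.61 to 4.80 on those of the gene type. Its difference between platelets and cells alone was 0.03 ± 0.0790 on the exon arrays (95% interval -0.15 to 0.20) and -0.09 ± 0.0562 on the gene arrays (-0.21 to 0.04). One further exon probe set that is annotated with Jag2 together with another gene was not used.

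The receptors spread widely within the groups. Notch1 encodes a receptor present in many epithelia. Its exon-array log2 level was 7.36, 6.50, 6.84, 6.64 and 7.63 in cells alone and 6.76, 7.62 and 7.39 in cells mixed at lysis. With platelets it was 6.04, 5.81, 5.97, 6.79 and 6.65. Platelets 4 and 5 overlapped the controls and platelets 1 to 3 lay below all of them. The difference from cells alone was -0.74 ± 0.264 (adjusted p = 0.179) and that from cells mixed at lysis was -1.01 ± 0.305 (adjusted p = 0.109), so neither passed.

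Notch3, a receptor studied mostly in vascular smooth muscle and in breast cancer lines, showed the widest spread within groups of any member on the exon arrays. Its exon-array log2 level was 6.90, 5.63, 5.63, 5.57 and 7.41 in cells alone and 5.65, 7.49 and 6.92 in cells mixed at lysis. With platelets it was 4.84, 4.75, 4.80, 5.31 and 6.19. Alone 1, alone 5 and mixed at lysis 5 and 6 were high, and platelets 5 was the 1 platelet array above the lower controls. The difference from cells alone was -1.05 ± 0.453 (adjusted p = 0.320), and that from cells mixed at lysis was -1.51 ± 0.523 (adjusted p = 0.173).

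Notch2 had high levels throughout. It read 9.46, 8.52, 8.77, 8.29 and 9.07 in cells alone, 8.42, 9.17 and 9.17 in cells mixed at lysis, and 8.86, 8.79, 8.84, 9.67 and 9.26 with platelets. The groups overlapped, and the difference between platelets and alone was 0.26 ± 0.245 (95% interval -0.27 to 0.80, adjusted p = 0.806).

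The receptor values on the exon arrays moved with the GC shift. Within each group, the arrays with a shift above 0.05 had the higher Notch3 levels except that alone 1, with a shift of 0.00, also read high. Alone 5 had the highest Notch1 and Notch3 of its group, mixed at lysis 5 and 6 read above mixed at lysis 4 in all 3 receptors, and platelets 4 and 5 read above platelets 1 to 3 in all 3. With the GC shift as a covariate, an adjustment chosen after the values were seen, Notch1 fell by 0.84 ± 0.129 against cells alone (adjusted p = 0.00155) and Notch3 fell by 1.21 ± 0.226 (adjusted p = 0.00572). Against cells mixed at lysis the same covariate gave falls of 0.78 ± 0.152 for Notch1 (adjusted p = 0.00953) and 1.12 ± 0.267 for Notch3 (adjusted p = 0.0280). With the 5 arrays of high shift left out instead, Notch1 fell by 0.90 ± 0.197 against cells alone (adjusted p = 0.0490) and Notch3 was at -1.14 ± 0.319 (adjusted p = 0.115). Against the single mixed-at-lysis array that then remained, neither passed (adjusted p = 0.263 and 0.495), in a fit that takes that array to vary like the other groups. The cause of the GC shift was not tested.

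**Figure D2:**
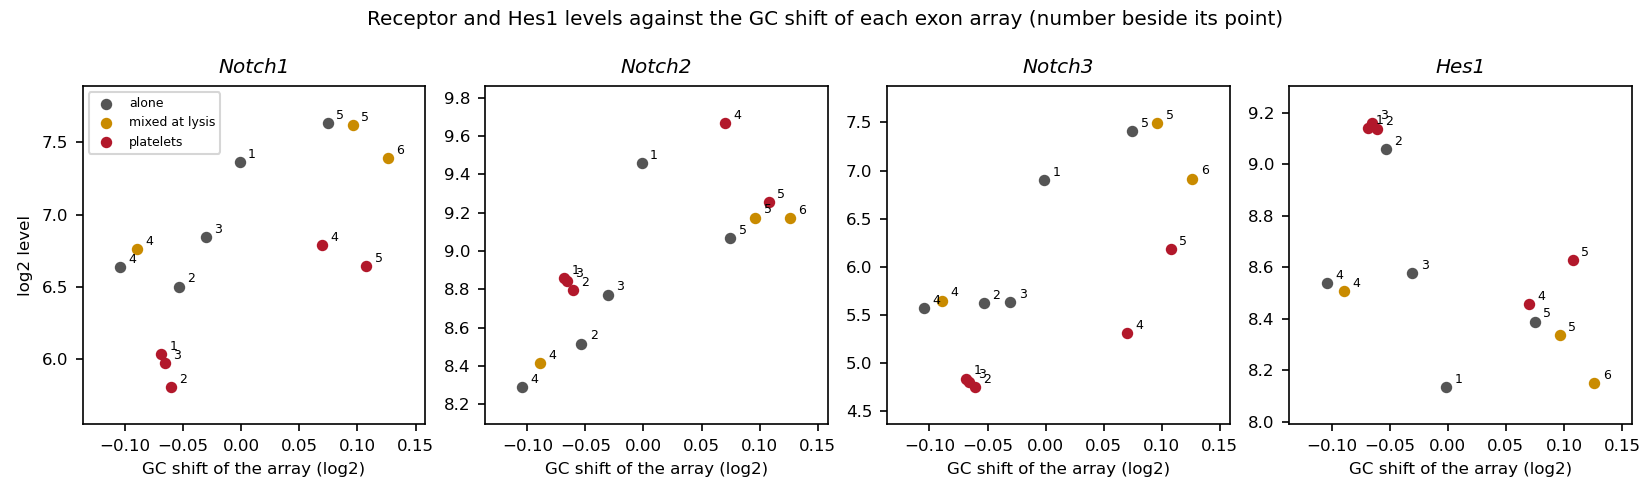
Log2 level (vertical axes) of Notch1, Notch2, Notch3 and Hes1 against the GC shift of each exon array in log2 units (horizontal axes), coloured by group, with the array number beside each point. At a like shift, platelet arrays read lower than control arrays in Notch1 and Notch3 but not in Notch2, and the lowest Hes1 levels of the platelet group belong to platelets 4 and 5.

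The receptors differed little on the gene arrays. Notch1 read 6.44, 6.34 and 6.26 in cells alone and 6.35, 5.85 and 6.57 with whole platelets, a difference of -0.09 ± 0.159 (95% interval -0.44 to 0.26). Notch3 read 5.83, 5.82 and 5.81 alone and 5.70, 5.65 and 5.73 with whole platelets. These Notch3 groups did not overlap, but all their values lay close to the array medians, and the difference of -0.12 ± 0.0516 did not pass (adjusted p = 0.459). Pellet and releasate gave Notch3 differences of -0.16 ± 0.0516 and -0.13 ± 0.0516 against the same alone arrays, also without overlap (adjusted p = 0.283 and 1.00). Notch2 spanned 8.10 to 8.20 in cells alone, 7.75 to 8.68 with whole platelets, 7.39 to 8.24 with pellet and 7.99 to 8.30 with releasate. Platelets 9, with the highest gene-array GC shift (0.06), had the highest Notch1 and Notch2 of the 12 arrays, and pellet 7, with the lowest (-0.04), had the lowest Notch2.

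Of the target genes, Hes1 was the 1 with a level clearly above the array median on either array type. Hes1 encodes a repressor that many cells switch on after Notch cleavage. Its exon-array log2 level was 8.14, 9.06, 8.58, 8.54 and 8.39 in cells alone and 8.51, 8.34 and 8.15 in cells mixed at lysis. With platelets it was 9.14, 9.14, 9.16, 8.46 and 8.63. Platelets 1 to 3 lay above every control array and platelets 4 and 5 lay inside the control range. The difference from cells alone was 0.36 ± 0.183 (95% interval -0.03 to 0.76, adjusted p = 0.444), and that from cells mixed at lysis was 0.57 ± 0.211 (adjusted p = 0.211). Hes1 therefore did not pass in either exon comparison.

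Hes1 on the gene arrays was 7.39, 6.87 and 7.36 in cells alone and 7.45, 7.21 and 7.08 with whole platelets. With pellet it was 7.70, 7.36 and 7.37, and with releasate 7.10, 7.10 and 7.36. All groups overlapped with cells alone. The whole-platelet difference was 0.04 ± 0.152 (95% interval -0.29 to 0.37), the pellet difference 0.27 ± 0.152 and the releasate difference -0.02 ± 0.152 (adjusted p = 0.982, 0.639 and 1.00).

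Hey1 and Heyl, which encode repressors of the Hairy-related family, read below the array median on every array of either type. On the exon arrays Hey1 spanned 3.22 to 3.42 alone and 3.31 to 3.47 with platelets, a difference of 0.04 ± 0.0575. Heyl spanned 2.94 to 3.43 alone and 3.33 to 3.47 with platelets, a difference of 0.11 ± 0.0897. On the gene arrays Hey1 was 5.13, 5.17 and 5.39 in cells alone, 5.56, 5.55 and 5.15 with whole platelets, 5.41, 5.33 and 5.39 with pellet, and 5.39, 5.45 and 5.44 with releasate. Releasate and alone did not overlap, though the lowest of the first and the highest of the second both round to 5.39, and the difference of 0.20 ± 0.105 did not pass (adjusted p = 1.00). Heyl spanned 4.83 to 5.02 over all gene arrays. At levels this close to the floor of the arrays, a change in either gene may not have been detectable.

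**Figure D3:**
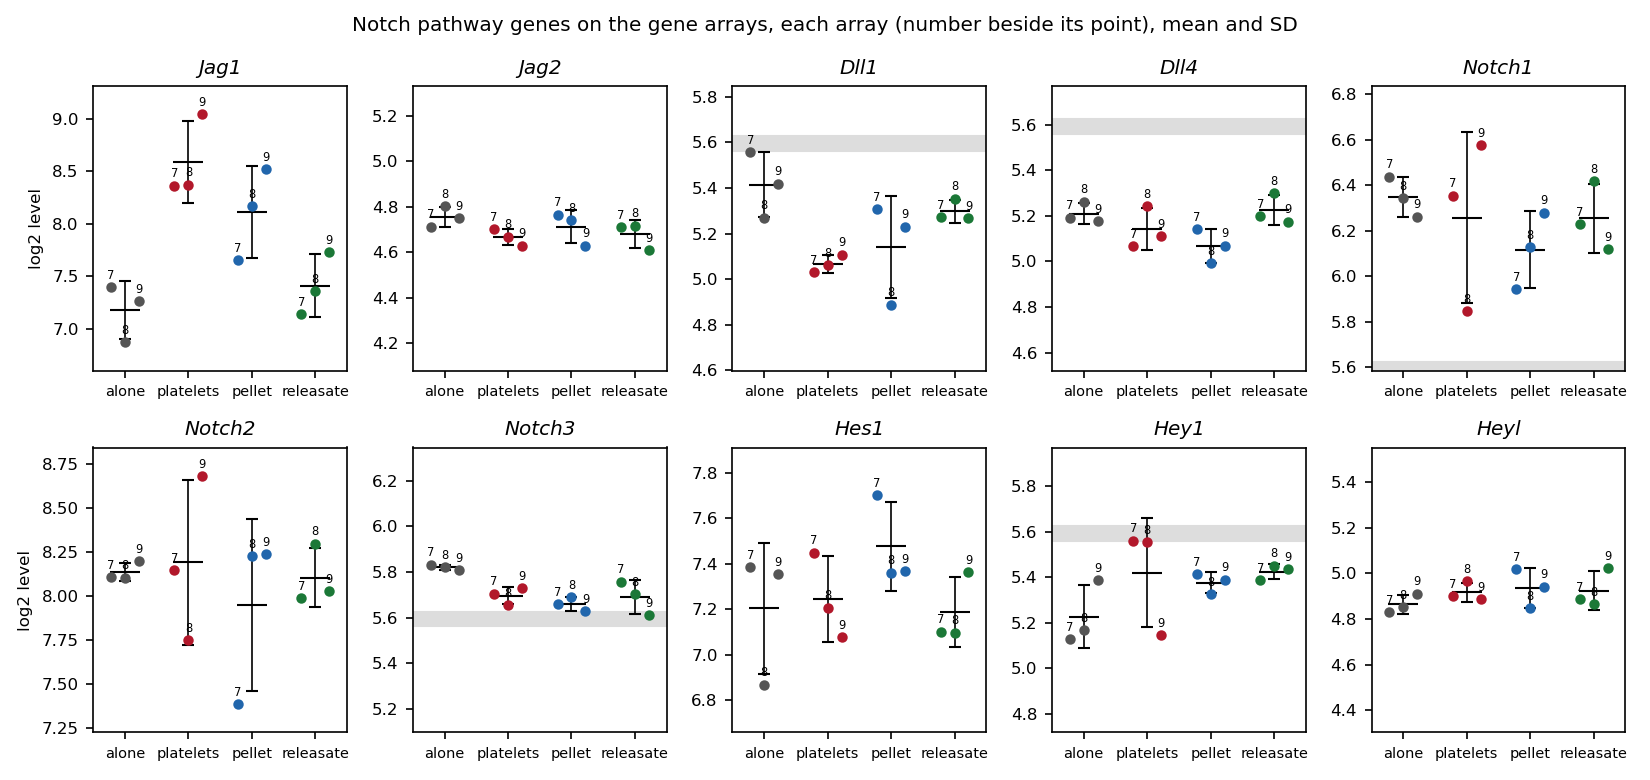
Log2 level (vertical axes) of each member on each gene array by group, with the array number beside each point, the group mean and SD as black bars, and the range of the array medians as a grey band where it falls on the axis. Jag1 with whole platelets (8.36 to 9.04) and with pellet (7.65 to 8.52) sits above cells alone (6.87 to 7.40), while Hes1 overlaps between all groups.

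Counted over the list, few members passed. On the exon arrays, between platelets and cells alone, Dll1 was the 1 of the 9 members other than Jag1 that passed, where 4.55% of all genes passed. Of the same 9, Dll1 and Dll4 did not overlap between these groups (5.51% of all genes), and 4 had an unadjusted p under 0.05 (13.4%). Against cells mixed at lysis, Dll1 and Dll4 passed among the 9, where 3.68% of all genes passed. There, Dll1 and Dll4 also did not overlap (11.7% of all genes), and 5 of the 9 had an unadjusted p under 0.05 (13.7%). Between cells mixed at lysis and cells alone, limma called none of the 10, with none at an unadjusted p under 0.05 and none without overlap. Of all genes, 0.0474% passed in that comparison, 3.94% had an unadjusted p under 0.05 and 3.31% did not overlap.

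The counts over the 10 members in this paragraph include Jag1, whose exon-array rise was known when the list was drawn up, so they are a description. On the gene arrays, 1 of 10 members passed between whole platelets and cells alone, where 0.667% of all genes passed. It was Jag1, and none of the other members passed. In that comparison 4 members did not overlap (16.1% of all genes), namely Jag1, Jag2, Dll1 and Notch3, and 3 had an unadjusted p under 0.05 (9.61%). For pellet against alone limma called none of the 10 members (0.416% of all genes), with 4 at an unadjusted p under 0.05 (9.63%) and 3 without overlap (15.9%). For releasate against alone it called none of the members and none of all genes (0%), with 1 member at an unadjusted p under 0.05 (2.82%) and 2 without overlap (8.71%). Whole platelets against releasate gave no called member (0.0451%), 2 at an unadjusted p under 0.05 (6.62%) and 2 without overlap (11.3%). Pellet against releasate gave no called member (0.00502%), 2 at an unadjusted p under 0.05 (5.71%) and 1 without overlap (10.2%). Whole platelets against pellet gave 0 members by any of these rules, where 0% of all genes were called, 2.52% had an unadjusted p under 0.05 and 6.15% did not overlap. The median difference of the members between platelets and cells alone was 0.03 for the exon and -0.01 for the gene arrays, beside 0.00 over all genes for either.

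**Figure D4:**
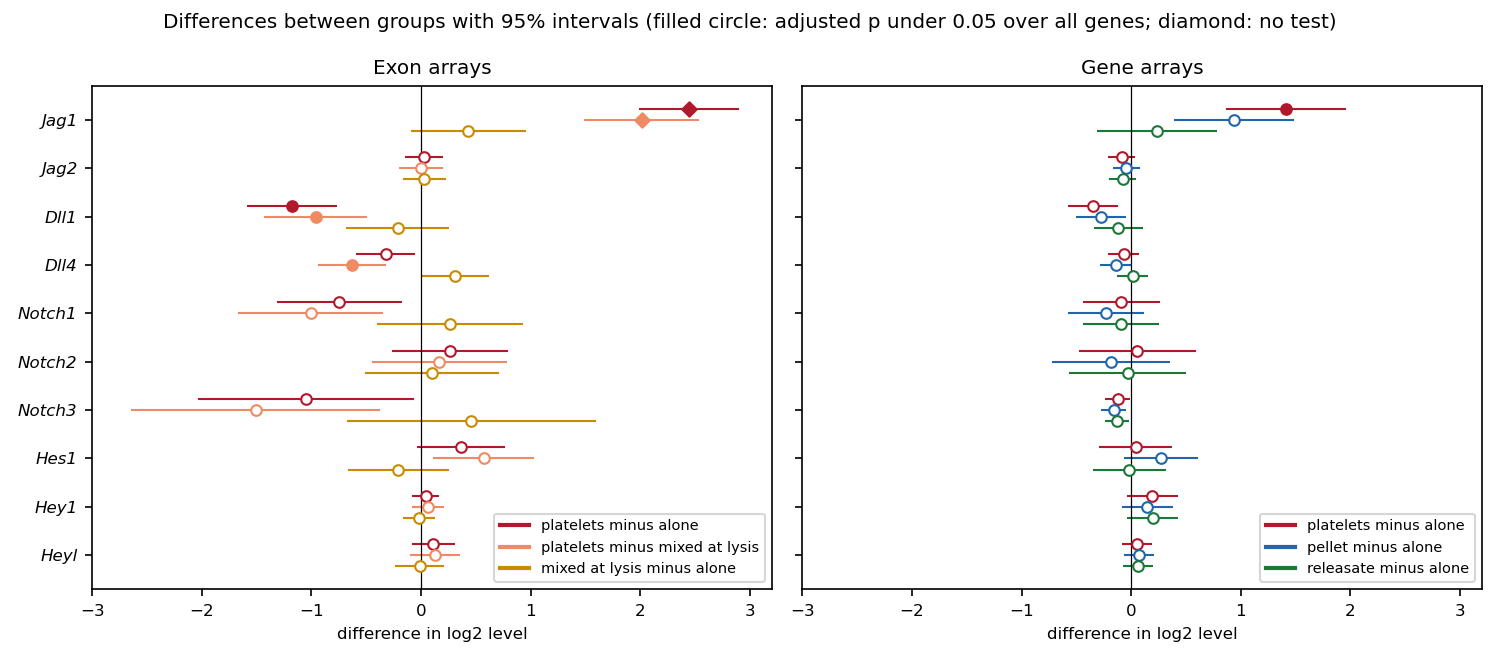
Difference in log2 level between groups (horizontal axes) for each member, with bars for the 95% interval from limma, filled circles for an adjusted p under 0.05 over all genes, and diamonds for the Jag1 differences given without a test. On the gene arrays the 1 filled circle is Jag1 with whole platelets (1.41).

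The exon cultures numbered 1 to 3 and those numbered 4 and 5 were also compared, since several members split along these numbers. The Jag1 difference between platelets and alone was 2.69 in numbers 1 to 3 and 2.07 in 4 and 5, and the Dll1 difference was -1.35 and -0.92. For Notch2 it was -0.08 and 0.78, and for Hes1 0.55 and 0.08. A test of the difference between these sets passed for none of the 10 members (adjusted p at least 0.730, unadjusted p at least 0.0850) and for 0 of 18997 genes. Whether these numbers mark batches is not given in the labels.

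Of 69 further pathway genes in 10 lists, the exon arrays measured 60 and the gene arrays 65. Between platelets and cells alone on the exon arrays, 1 rose, 2 fell and 57 did not pass, with a median difference of 0.05. That is 3 of 60, where 4.55% of all genes passed. Fbxw7, a ubiquitin ligase subunit that marks the cleaved Notch fragment for degradation, rose by 0.56 ± 0.108 (adjusted p = 0.00929). Against cells mixed at lysis Fbxw7 was at 0.42 ± 0.124 (adjusted p = 0.0965), and on the gene arrays at -0.04 ± 0.129 with whole platelets. Gata3, a luminal transcription factor of the mammary gland listed as a Notch target, fell by 1.24 ± 0.148 (adjusted p = 0.000314). Bcl2, which restrains apoptosis and was listed as a target, fell by 0.88 ± 0.0893 (adjusted p = 9.6e-05). Both belong to the 6 other listed targets, which had a median difference of -0.40 and of which these 2 passed. Gata3 and Bcl2 also answer to inputs other than Notch.

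Against cells mixed at lysis, none of the 60 rose and 4 fell, where 3.68% of all genes passed. These were Gata3 (-1.14 ± 0.171), Bcl2 (-0.81 ± 0.103), the cell cycle inhibitor Cdkn1a (-0.80 ± 0.193) and Adam17 (-0.45 ± 0.106), a protease able to cut Notch receptors. On the gene arrays 1 of 65 rose with whole platelets and none fell, with a median of 0.01, where 0.667% of all genes passed. It was Maml2, a Mastermind coactivator, at 0.45 ± 0.0862 (adjusted p = 0.0461). Maml2 also rose with pellet, by 0.52 ± 0.0862 (adjusted p = 0.0298), and was 0.21 ± 0.0862 above alone with releasate (adjusted p = 1.00). On the exon arrays Maml2 was 0.95 ± 0.475 above alone with overlap (adjusted p = 0.443). Bcl2 was 0.40 ± 0.124 below alone with whole platelets on the gene arrays (adjusted p = 0.240), and Gata3 differed there by 0.05 ± 0.197 (adjusted p = 0.981). None of the 7 other Hes and Hey genes, the 5 ligand ubiquitin ligases or the 5 receptor glycosylation genes passed between platelets and alone on either array type.

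**Figure D5:**
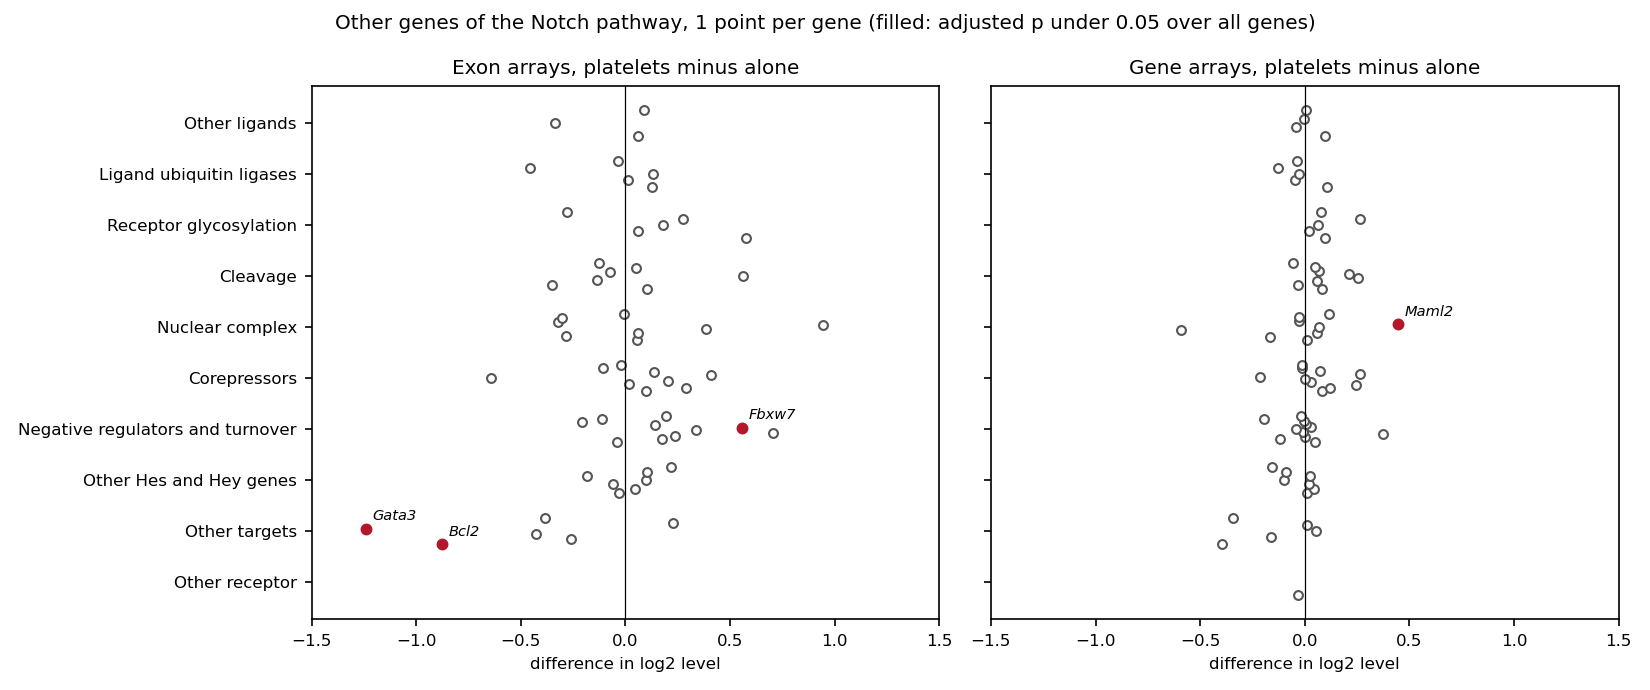
Difference in log2 level between platelets and cells alone (horizontal axes) for further Notch pathway genes, 60 of them measured by exon and 65 by gene array, 1 point per gene in rows by role, filled where the adjusted p over all genes is under 0.05. The filled points are Fbxw7, Gata3 and Bcl2 (exon) and Maml2 (gene).

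Over the 13 exon and 12 gene arrays, the genes whose level followed Jag1 most closely were Clu (a secreted chaperone), Mmp9 (a gelatinase), Fermt1 (an integrin activator), Ctsw (a cathepsin) and Nuak1 (a kinase), ranked by the lower of their Pearson correlations on the array types among 17481 genes. For Clu these were 0.976 and 0.973, and for Nuak1, the fifth, 0.939 and 0.966. Their differences between platelets and alone were 2.84 for Clu, 5.84 for Mmp9, 2.06 for Fermt1, 4.95 for Ctsw and 1.74 for Nuak1 on the exon arrays. For Dll1 the closest were Fst, the activin antagonist follistatin (0.887 and 0.870), Ppp1r12b, Gfod1, Ptpn22 and Sorbs2. All these points share the same arrays and the same grouping into cultures, so a gene that differs between the groups in the same way ranks high, and the correlations are a description only.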

How the data were processed

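Gene expression was measured on 13 mouse exon arrays and 12 mouse gene arrays. The deposited log2 values were made by the authors with RMA in Partek 6.4 (exon) and Partek 6.5 (gene), per the submitters' processing notes, and their background and summary options are not given in the sources used here. The array types also differ in labelling kit, per the labels. Because the tables were normalized separately, every test stays within one. Arrays carry no read depth, and their number limits the precision.

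Genes were named from the platform annotation through probe sets with 1 symbol. Where a gene had several, the one with the highest mean was used. Each table was fitted with limma 3.58.1 (lmFit, eBayes) in R 4.3.3 on all its groups, and p-values were adjusted by Benjamini-Hochberg over all genes of the table, with a threshold of 0.05. The procedure was run on simulated data with independent noise for each gene and array. That simulation held no GC shift, no effect of the number and no unequal array quality, so it does not cover those features. The labels do not say that samples were separate cultures, so the p-values reflect only the spread among these arrays, which may be technical.

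The 10 members, the wider pathway lists and the cell type markers were chosen with earlier results of these data known. All members are named. Of the wider lists, genes past the adjusted p in a comparison with cells alone or mixed at lysis are named, and likeness lists the 5 genes of highest lower correlation for Jag1 and Dll1. Groups share numbers in the sample titles. Deviations of same-numbered gene arrays from their group means correlated at 0.287 to 0.442 between alone and whole platelets and at 0.292 to 0.381 between alone and releasate. The numbers were taken to pair these samples, which no label states and which these correlations alone cannot show. Arrays of unlike numbers were not correlated in this way, and each block fit held all groups of its table. In the other comparisons not every pair was over 0.1, or fewer than 3 pairs exist. Alternatives covered normalization, array weights, the prior, dim genes, the choice of probe set, the samples fitted, the number as a block, contradictory tags, single arrays left out and, added after seeing the data, the GC shift.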

Additional observations from a re-analysis of the deposited data

Results flagged for a closer look

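Heyl on the exon array alone 5 stood far from the other 4 arrays of cells alone. It read 2.94 where the others read 3.38 to 3.43, and its gap to the nearest of them was 0.897 of the range of the group. Of 20 groups of values examined in this way, this was the 1 found, and chance gives about 1 in 20. All these values lie below the array median, and alone 5 has the highest array median of the exon arrays (3.90). Without it, Heyl spanned 3.38 to 3.43 alone.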

How the results depend on the processing

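Over the 9 comparisons, no called difference of a member changed sign under any alternative. The number of members called stayed within 1.5 times that reported in 144 recounts and left it in 24. A recount of 0 where 0 was reported counts as within, and most of the comparisons had no member called, so these numbers say little about stability. In the exon comparisons of platelet cultures, these recounts include Jag1, whose value there chose the list, so they are a description. For those comparisons the counts given next are over the other 9 members. Between platelets and alone on the exon arrays (1 of these 9 called), 0 were called within numbers 4 and 5. With the GC shift as a covariate, a setting chosen after seeing the data, 4 were called. The count was 2 with the replicate block, with array weights or without the 5 arrays of high GC shift (also chosen after seeing the data). Between platelets and mixed at lysis (2 of these 9 called), the count was 0 within numbers 4 to 6, 5 with array weights and 4 with the GC covariate. With single arrays left out it was 0 to 2, being 0 without platelets 1, platelets 2, mixed at lysis 5 or mixed at lysis 6. The count was 1 with quantile normalization again, equal array medians, only these groups fitted or sets of numbers as a factor. Between whole platelets and alone on the gene arrays (1 called), it was 2 with array weights, 0 when only these groups were fitted (Jag1 adjusted p = 0.0551), 0 without alone 8 and platelets 9, and 0 to 1 with single arrays left out. With pellet against alone (0 called), array weights and the GC covariate each called 1, which was Jag1 (adjusted p = 0.00981 and 0.0176). With whole platelets against releasate (0 called), the GC covariate called 1, Jag1 (0.0340). The cause of these changes was not tested.

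Over all genes, array weights raised the calls from 864 to 1750 (platelets against alone, exon), from 699 to 4402 (against mixed at lysis), from 9 to 231 (mixed at lysis against alone), from 133 to 464 (whole platelets against alone, gene), from 83 to 501 (pellet against alone), from 9 to 42 (whole platelets against releasate) and from 1 to 37 (pellet against releasate). The GC covariate gave 1450, 1116, 11, 286, 161, 55 and 8 in the same order. Within numbers 4 and 5, the first of these comparisons called 1 gene, and within numbers 4 to 6 the second called 70 and the third 3. Without the 5 arrays of high GC shift the second called 295. With only the groups compared in the fit, the third called 18, the fourth 80, the fifth 34 and the sixth 0. Without alone 8 and platelets 9 the fourth called 30, the fifth 46, and the sixth and the last 0. Moderation with trend and robust called 21 and 16 in the last 2 comparisons, and equal array medians 5 and 0. Filtering dim genes called 0 in the last. Single arrays left out gave 397 to 756 in the second, 1 to 7 in the third, 21 to 119 in the fourth, 8 to 133 in the fifth, 4 to 12 in the sixth and 0 in the last.

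With the replicate number as a block over all groups of a table, Jag1 kept its call between alone and whole platelets on the gene arrays (adjusted p = 0.00391). Releasate against alone, the other comparison taken as paired, stayed at 0 genes called. Where samples share only a number, the block called 1 member with pellet against alone (Jag1, 0.0297) and 1 with whole platelets against releasate (Jag1, 0.0224). On the exon arrays the block called 0 of the 9 members other than Jag1 between platelets and mixed at lysis. Between platelets and alone on those arrays it added Notch3 (0.0329). It took the genes called in those comparisons from 83 to 359, from 9 to 98, from 699 to 472 and from 864 to 1326, from 1 to 44 with pellet against releasate, and from 9 to 1 with mixed at lysis against alone.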
